A study of Mus musculus with 80 samples.

Results

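The comparison set the lysate RNA of brain cells selected on CD11b microbeads with the autoMACS separator (autoMACS-Input) against that of the unsorted cell suspension (Cell-Input). It covered 15919 genes in the deposited table. Its members were chosen by their titles, 4 autoMACS-Input and 4 Cell-Input libraries, 8 of the 80 samples of the series. All animals were Cx3cr1(Jung)-cre/Ert2+;NuTRAP+ mice that received daily intraperitoneal tamoxifen at 100 mg/kg from about 3 months of age. In this model Cre acts in Cx3cr1+ cells, so resident microglia and border macrophages carry eGFP on their ribosomes. Circulating Cx3cr1+ leukocytes carry it until they turn over. The study collected brains after an interval at which eGFP in blood CD11b+CD45+ cells could not be told apart from Cre-negative controls. Each library came from a brain hemisphere of 1 mouse that was dissociated with enzymes and mechanical force and cleared of debris. "Input" is an aliquot of the lysate, cleared by centrifugation, taken before tagged ribosomes were pulled down by translating ribosome affinity purification (TRAP). It therefore holds RNA of tagged and untagged cells alike. How much nuclear RNA it kept was not measured. The Cell-Input mice (replicates 1 and 2 male, 3 and 4 female) and the autoMACS-Input mice (replicates 1 and 2 male, 3 and 4 female) were different animals. The p-values of this comparison rest on a spread within groups pooled over the 20 Input libraries of the fit. Tyto-Input (n = 5) and FACSAria-Input (n = 4), for which CD11b+CD45+eGFP+ cells from other mice were sorted in a closed cartridge or in a droplet sorter, are set beside autoMACS-Input as sorted references. These 9 libraries came from 6 mice, 3 of which gave a library to each sort, and the fit treated the 9 as independent. The fit also held 3 libraries of cells sorted by autoMACS and then Tyto. They came from mice that also gave autoMACS-Input libraries and were treated as independent too.

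CD11b is the alpha chain of the integrin CR3, encoded by Itgam, and pairs with CD18, encoded by Itgb2. In the brain it marks microglia, the resident macrophages that arise from yolk-sac precursors, but it is also carried by border macrophages of the meninges and vessels, neutrophils, monocytes, natural killer cells and some dendritic cells. A magnetic bead column retains any cell with enough of the antigen and does not read eGFP or CD45. The comparison asks which transcripts were higher and which lower after a selection on CD11b alone.

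Total counts over genes ran from 12940501 to 16332372 in Cell-Input (median 14574060.5) and from 7129451 to 18514971 in autoMACS-Input (median 11645849.5). The autoMACS-Input libraries were not alike. Spearman correlations over 11495 genes lay between 0.938 and 0.95 for replicate 3 against the others, while replicate 1 reached 0.994 with its nearest. Replicate 3, also the shallowest, was the library standing apart from the other autoMACS-Input libraries at 9.74% of these genes (760 high and 360 low), against 0.47% to 0.818% for each of the others. Results that rest on it are given with and without it. In the study's sequencing metrics both female autoMACS-Input libraries also had the lower RNA integrity, so sex and RNA quality cannot be told apart among these 4 libraries. Levels below are library-size scaled counts (CPM) after TMM normalization, which are not divided by gene length and are therefore not compared between genes. In edgeR, a called gene had a false discovery rate (FDR) below 0.1 together with more than a 2-fold difference, and fold changes are autoMACS-Input over Cell-Input on the log2 scale. Listed genes are counted among those tested, and a gene could pass the filter on low counts through the group in which it was high.

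Many transcripts differed after selection on CD11b. Of 15076 genes tested, 7897 (52.4%) were called, 3048 higher (20.2%) and 4849 lower (32.2%). In 10567 genes (70.1%) the 4 autoMACS-Input values did not overlap the 4 Cell-Input values. The balance between directions depended on scaling, since higher genes made up 38.6% of the calls with TMM, 29.4% with DESeq2 size factors and 25.6% with the deposited log2 values, while the median change of all genes went from 0.05 to -0.25 and -0.37.

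RNA of the selected antigen rose in every autoMACS-Input library, and all 5 genes of the sort antigen list were called higher. The list also holds leukocyte genes that no sort selected on. Itgam stood at 272, 334, 324 and 320.2 CPM in Cell-Input and at 2288, 2194, 1493 and 2385 CPM in autoMACS-Input (log2 fold change 2.74 ± 0.13 (SE), FDR = 4.36e-13), a 6.69-fold rise with no overlap between groups. Ptprc, which encodes CD45 and was not selected on in this sort, went from 58.8, 66.3, 70.5 and 67.4 CPM to 485, 446, 509.9 and 550.3 CPM (log2 fold change 2.92 ± 0.08 (SE), FDR = 3.83e-15). Neither was called against the sorted references, where Itgam stood at 2334 ± 222 CPM (SD, n = 5) in Tyto-Input and 2520.5 ± 182 CPM (SD, n = 4) in FACSAria-Input. Of the 5 listed genes, 1 was called higher there: Itgal (2.02), an integrin chain of leukocytes on which none of the sorts selected.

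Microglial identity genes rose in autoMACS-Input. All 30 homeostatic microglial genes tested were called higher, with a median log2 fold change of 2.56 against 0.05 over all genes. Cx3cr1, the fractalkine receptor, read 379, 494, 535 and 477 CPM in Cell-Input and 3754, 3308, 2259 and 3299.5 CPM in autoMACS-Input (log2 fold change 2.74 ± 0.14 (SE), FDR = 1.22e-12), and its lowest autoMACS-Input value, in replicate 3, was still far above the highest Cell-Input value. Olfml3, a secreted olfactomedin protein, rose by 2.57, whereas Sparc, a matrix protein that endothelium also makes, rose by 1.41. Of 19 transcription factors tested, 18 rose. Sfpi1, which encodes the myeloid master regulator PU.1, went from 44.01, 55.8, 57.7 and 59.01 CPM to 504, 438, 356 and 416 CPM (log2 fold change 2.98 ± 0.12 (SE), FDR = 7.16e-14). Sall1, a repressor that among brain macrophages is restricted to microglia, went from 179, 234, 242 and 213 CPM to 1102, 947, 700.3 and 1107 CPM (log2 fold change 2.15 ± 0.14 (SE), FDR = 3.55e-11). The exception was Etv5, named after its values were seen, at 0.95 (FDR = 5.08e-05), and it passed when autoMACS-Input replicate 3 was left out (1.05, FDR = 1.39e-06). None of these 49 genes was called between autoMACS-Input and the Tyto-Input and FACSAria-Input libraries, a contrast in which 4.5% of all genes were called.

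The longer microglial marker list of the study, built from published sorting data, was called in the same direction. Of its 282 genes, 278 were called higher and none lower, with a median of 2.57. The 4 that missed the call were all positive: Rbm47, an RNA-binding protein, at 0.99, Ucp2, a mitochondrial carrier, at 0.96, Sgk1, a glucocorticoid-induced kinase, at 0.62 and Cables1, a cyclin-dependent kinase adaptor, at 0.80. Ucp2 passed without replicate 3 (1.18, FDR = 3.41e-07).

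**Figure D1:**
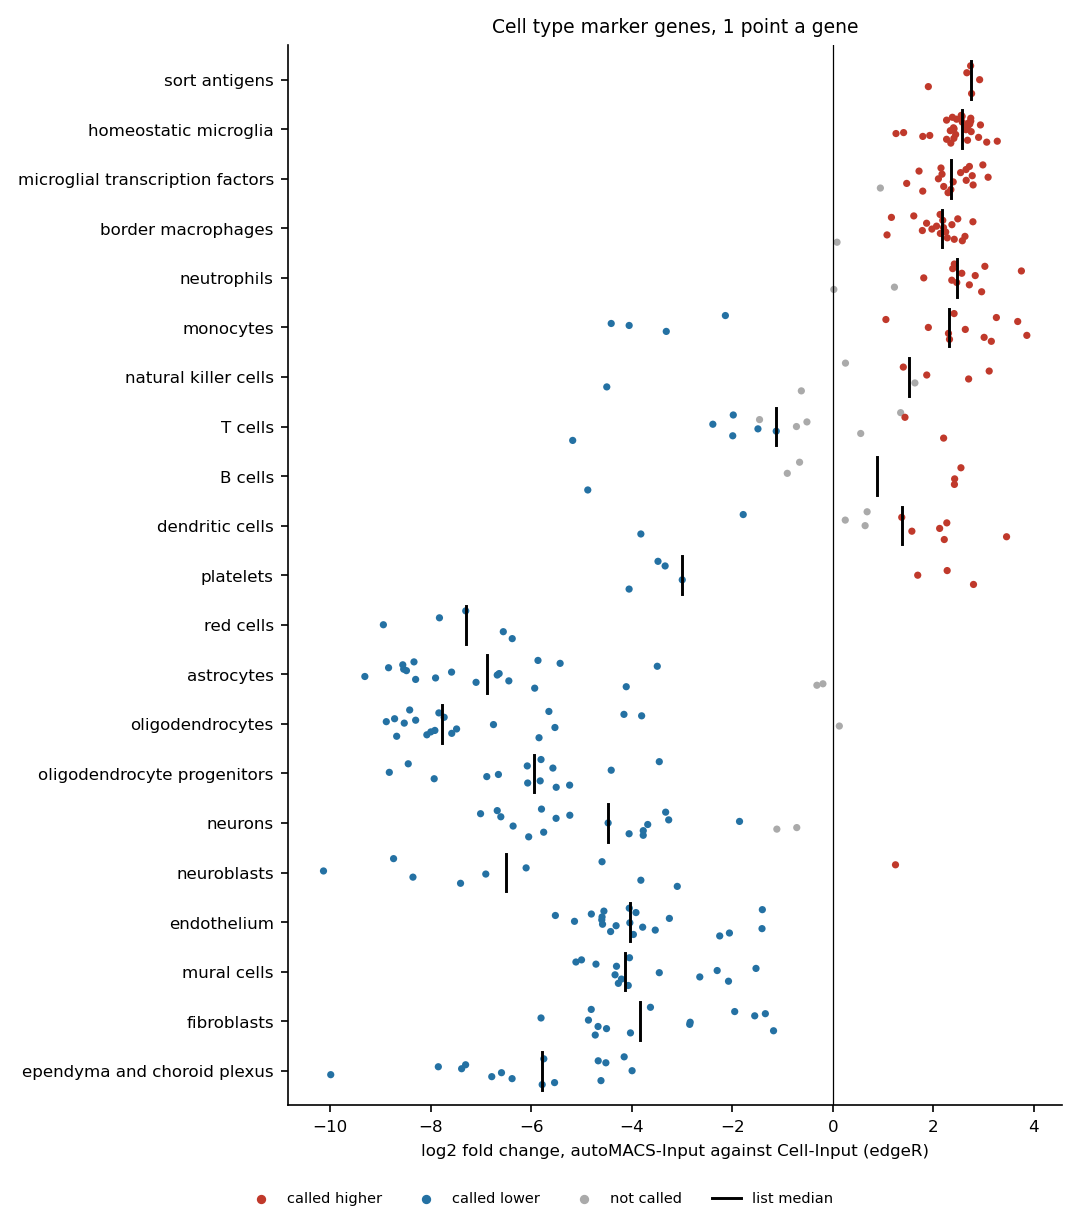
Log2 fold change of autoMACS-Input (n = 4) over Cell-Input (n = 4) on the horizontal axis for every tested member of each cell type list, 1 point a gene, with the list median as a black bar. Microglial and border macrophage lists lay almost entirely above 0 and glial, neuronal, vascular and red cell lists below it, while monocyte, T cell, B cell, dendritic and platelet lists spread over both sides.

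Genes of border macrophages, which also carry CD11b, rose as well. Of 20 tested, 19 were called higher, with a median of 2.16. Pf4, a chemokine of perivascular and meningeal macrophages and of platelets, read 11.9, 8.86, 5.93 and 5.98 CPM in Cell-Input and 41.6, 69.2, 39.1 and 31.5 CPM in autoMACS-Input (log2 fold change 2.49 ± 0.27 (SE), FDR = 7.67e-08). F13a1, a transglutaminase subunit of the same macrophages, went from 56.01, 27.3, 27.6 and 27.8 CPM to 148, 240.4, 85.2 and 156 CPM (log2 fold change 2.19 ± 0.32 (SE), FDR = 3.79e-06), with autoMACS-Input replicate 3 lowest and replicate 2 highest. Ms4a7, Cbr2 and Stab1 rose by 2.79, 1.87 and 1.97. The single member without a call was Colec12, a scavenger receptor also made by fibroblasts, at 0.08 (FDR = 0.742). Against the sorted references, 2 of the 20 were called higher and none lower, and F13a1 stood at 173 ± 40.9 CPM in Tyto-Input and 108 ± 25.2 CPM in FACSAria-Input.

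Most neutrophil genes were higher in autoMACS-Input than in the suspension and than in the pooled sorts gated on eGFP. Of 16 listed, 13 were tested, and 11 of them were called higher than in Cell-Input, with a median of 2.46. S100a9, a calcium-binding alarmin abundant in neutrophils, stood at 4.98, 12.1, 6.08 and 10.5 CPM in Cell-Input and 58.99, 86.4, 98.6 and 29.7 CPM in autoMACS-Input (log2 fold change 3.02 ± 0.68 (SE), FDR = 4.96e-04). Ngp, a granule protein, went from 4.26, 2.26, 6.17 and 6.86 CPM to 25.2, 50.2, 33.8 and 6.41 CPM (log2 fold change 2.57 ± 0.80 (SE), FDR = 0.00647), and replicate 4 lay within the Cell-Input range. Camp, the cathelicidin precursor, rose by 3.75. Against Tyto-Input and FACSAria-Input, 11 of the 13 were called higher as well, beside 2.72% of all genes, with a median of 2.32. S100a9 read 10.3, 31.6, 37.2, 13.95 and 14.2 CPM in the 5 Tyto-Input libraries and 3.39, 1.001, 12.3 and 0.094 CPM in the 4 FACSAria-Input libraries (log2 fold change 2.85 ± 0.54, FDR = 0.00281), so that the autoMACS-Input values were above every FACSAria-Input value and overlapped the Tyto-Input values. Without autoMACS-Input replicate 3, 10 of the 13 were called in each contrast. With at least 10 counts in every library, 3 were called against Cell-Input and 1 against the pooled references. Against FACSAria-Input alone 12 of the 13 were called, but against Tyto-Input alone 5, and S100a8 (1.35), Camp (1.69) and Ngp (1.30) were among those not called there.

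The monocyte list split in direction. Of 16 listed, 15 were tested, with 11 called higher and 4 lower. Plac8, a small protein of monocytes and other leukocytes, went from 0.72, 0.348, 0.924 and 1.21 CPM to 3.14, 9.41, 3.61 and 14.8 CPM (log2 fold change 3.25 ± 0.59 (SE), FDR = 5.43e-05). Ccr2, the receptor that draws monocytes into tissue, went from 5.22, 2.9, 5.54 and 3.51 CPM to 22.9, 26.8, 15.8 and 25.98 CPM (log2 fold change 2.41 ± 0.25 (SE), FDR = 3.15e-08). In both genes all autoMACS-Input values exceeded all Cell-Input values. The 4 that fell were Vcan, a proteoglycan of oligodendrocyte progenitors (-4.41), Fn1, fibronectin, made by vessel cells and fibroblasts (-4.05), Ace, angiotensin-converting enzyme, made by endothelium and choroid plexus (-3.31), and Ly6c2. Ly6c2, the antigen of classical monocytes, lies beside the near-identical endothelial gene Ly6c1, and reads shared between them make its value uncertain. It fell from 8.59, 16.2, 16.97 and 11.3 CPM to 2.77, 4.71, 2.14 and 2.21 CPM (log2 fold change -2.14 ± 0.58 (SE), FDR = 0.00231) yet stood above the pooled sorted references (log2 fold change 1.89 ± 0.51, FDR = 0.0218), though not called against Tyto-Input alone at 1.47. It averaged 1.08 ± 0.553 CPM in Tyto-Input and 0.58 ± 0.654 CPM in FACSAria-Input. In all, 9 of the 15 were called higher in autoMACS-Input than in those references, beside 2.72% of all genes. The number called higher was 6 against Tyto-Input alone, 8 against FACSAria-Input alone and 2 with at least 10 counts in every library. Spn, leukosialin, a surface mucin of leukocytes, was among the 8 largest such differences. It read 9.88, 16.6, 18.03 and 24.6 CPM in autoMACS-Input, 1.67, 2.55, 3.92, 2.05 and 2.02 CPM in Tyto-Input and 3.51, 1.3, 1.33 and 2.15 CPM in FACSAria-Input (log2 fold change 2.95 ± 0.28, FDR = 2.39e-05), with no overlap, and the difference without replicate 3 was 2.96, FDR = 4.26e-05.

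Cytotoxic lymphocyte genes were present at a few CPM. Of 14 natural killer cell genes listed, 8 were tested, with 4 called higher than in Cell-Input and Eomes, a T-box factor that neurons also use, called lower (-4.50). Gzma, a granule serine protease, went from 0.6, 0.232, 0.583 and 1.1 CPM to 3.37, 5.1, 6.14 and 1.98 CPM (log2 fold change 2.70 ± 0.62 (SE), FDR = 7.69e-04). It was listed at 0.128, 0.182, 0.167, 0 and 0 CPM in Tyto-Input and at 0 in all 4 FACSAria-Input libraries. Of the 8, 6 were called higher in autoMACS-Input than in the pooled references, beside 2.72% of all genes, and also 6 without replicate 3. Without that replicate, 3 of the 8 were called against Cell-Input. When every library needed at least 10 counts, 0 were called in either contrast, and Gzma could not pass that filter. The 4 called against Cell-Input became 2 with DESeq2 size factors, with limma, without Cell-Input replicate 3 and without autoMACS-Input replicate 2. In the T cell list 13 of 16 were tested. Of these 2 rose, Il7r (2.20) and Cd4 (1.44), the first a cytokine receptor that microglia also transcribe, and 6 fell, among them Ms4a4b (-1.12, FDR = 0.0879), which lost its call when any of 5 single libraries was left out, at -1.12 to -0.74. The list median, -1.12, ranged from -2.16 to 1.44 over the alternatives and so changed sign. In the B cell list 6 of 12 were tested. Cd79b, a chain of the B cell receptor complex that microglia also transcribe, went from 2.58, 3.24, 3.31 and 4.33 CPM to 24.1, 17.2, 15.9 and 21.8 CPM (log2 fold change 2.55 ± 0.22 (SE), FDR = 2.27e-09), while Cd79a, its partner, had a difference of -0.66 that was not called (FDR = 0.246). Ebf1, a B cell factor that pericytes also use, fell (-4.87). Of 11 dendritic genes tested, 6 rose, including Cd209a (2.27), and 2 fell, Cd24a (-3.82) and Zbtb46 (-1.78), both also transcribed outside the immune system. In these bulk samples fewer cells of a type and less RNA per cell cannot be told apart.

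**Figure D2:**
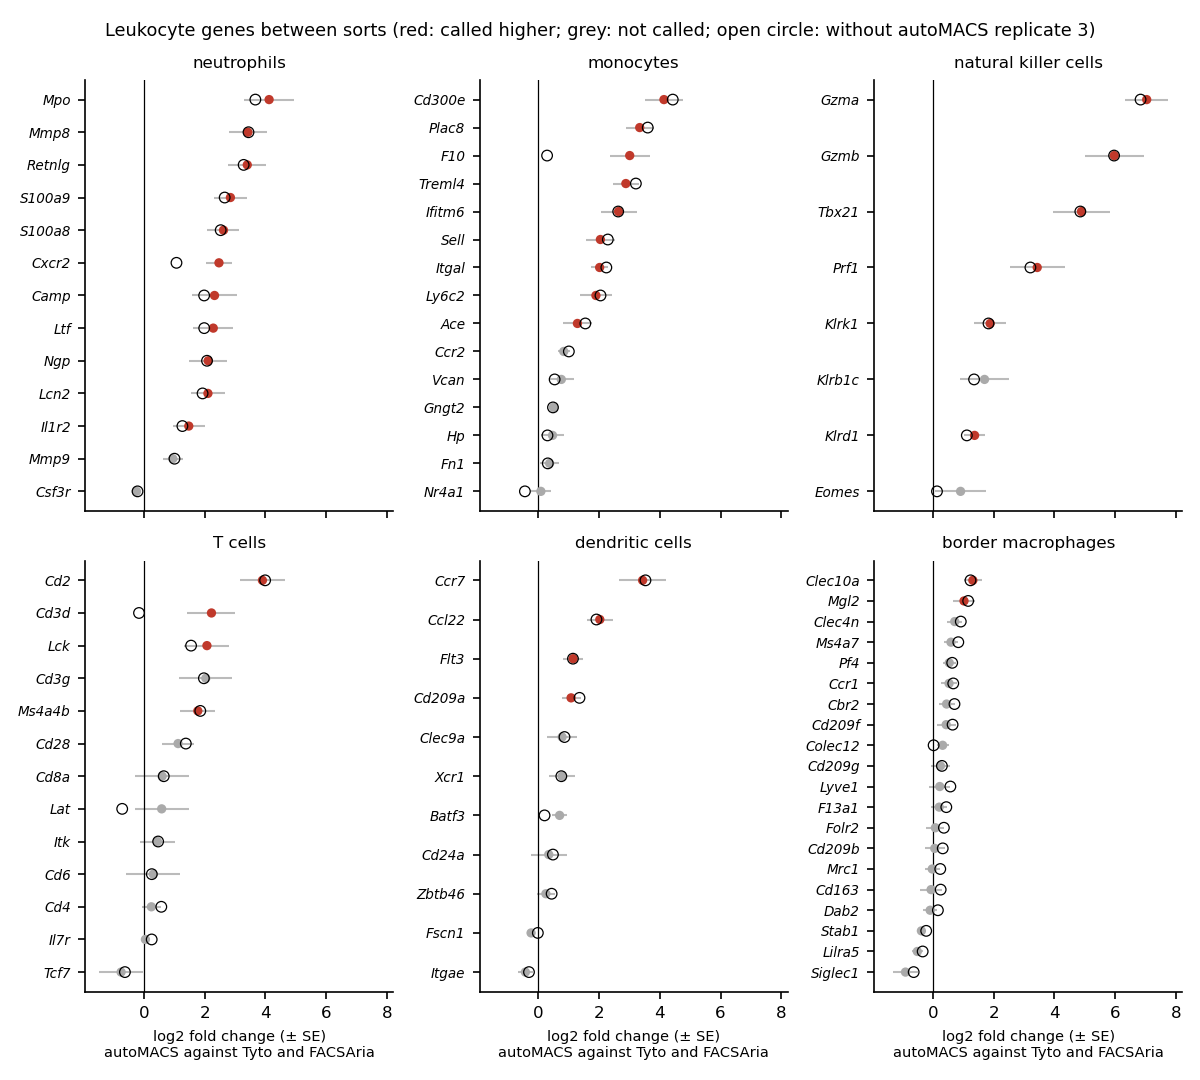
Log2 fold change of autoMACS-Input (n = 4) over Tyto-Input (n = 5) and FACSAria-Input (n = 4) together, with its SE, for each tested member of 6 leukocyte lists. Red points were called higher and grey points not called, and open circles are the values without autoMACS-Input replicate 3. Most neutrophil and natural killer cell genes lay well above 0, whereas border macrophage genes clustered near 0.

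Red cell transcripts fell steeply. All 5 red cell genes tested fell (3 with the DESeq2 Wald test), with a median of -7.30, and their summed level dropped from between 2424 and 3962 CPM in Cell-Input to between 11.9 and 22.0 CPM in autoMACS-Input. Hba-a1, an alpha globin whose reads cannot be told apart from those of its near-identical copy, read 2067, 1996, 1906 and 2983 CPM and then 15.4, 13.6, 17.6 and 10.3 CPM (log2 fold change -7.30 ± 1.07 (SE), FDR = 4.48e-06). Alas2, the erythroid enzyme that opens heme synthesis, read 195, 178, 178 and 364 CPM and then 0.749, 0, 0.935 and 0.466 CPM (log2 fold change -8.94 ± 0.96 (SE), FDR = 5.87e-08). Cell-Input replicate 4 was the highest for both. Hba-a1 stood at 119, 237, 207, 127 and 103 CPM in Tyto-Input, above every autoMACS-Input value, and at 18.9, 12.6, 32.8 and 56.3 CPM in FACSAria-Input, which overlapped autoMACS-Input. The Hba-a1 difference from the pooled references (log2 fold change -2.29 ± 0.82, FDR = 0.0685) lost its call in each fit that left out an autoMACS-Input library, between -2.37 and -2.16, and in the fit without FACSAria-Input replicate 4, at -2.02. In the platelet list, 7 of 10 were tested, with 3 called higher and 4 lower. The list median, -2.99, ranged from -3.43 to 1.31 over the alternatives. Ppbp and Itga2b, a platelet chemokine and the platelet integrin, fell (-3.48 and -3.33), while Gp9 and Gp1ba, subunits of the platelet adhesion receptor, rose (2.27 and 1.69), as did Treml1 (2.80, but 1.08, FDR = 0.0747 without replicate 3).

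Astrocyte transcripts fell by large factors. Of 20 astrocyte genes tested, 18 were called lower and none higher, with a median of -6.88. Slc1a2, the main glutamate transporter of astrocytes, fell from 2443, 3544, 2786 and 3238 CPM to 6.59, 7.12, 8.68 and 10.02 CPM (log2 fold change -8.55 ± 0.52 (SE), FDR = 1.27e-11). Gja1, a gap junction connexin, and Aqp4, the water channel of astrocyte endfeet, fell by similar amounts (-8.83 and -8.33). Slc1a3, a glutamate transporter that microglia can transcribe as well, fell less, from 1779, 2079.9, 1960.0 and 1937 CPM to 152, 191, 124 and 223 CPM (log2 fold change -3.49 ± 0.19 (SE), FDR = 2.41e-12). Apoe, the apolipoprotein that astrocytes and macrophages both make, stood at 3685, 3980.4, 4086 and 4424 CPM in Cell-Input and 3490.1, 4610.1, 2398 and 3617 CPM in autoMACS-Input (log2 fold change -0.20 ± 0.19 (SE), FDR = 0.349), with overlapping groups. Glul, glutamine synthetase, was the other member without a call (-0.32, FDR = 0.0326). Both are listed as astrocyte genes, and Apoe also belongs to the list of disease-associated microglia. The largest falls among abundant genes followed the same direction. Slc6a11, an astrocytic GABA transporter, fell from 615, 984, 1283 and 1297 CPM to 0.449, 0.784, 1.2 and 1.17 CPM (log2 fold change -10.27 ± 0.70 (SE), FDR = 7.09e-11), and Gpr37l1, Hepacam and Gpr37 changed by -9.61, -9.60 and -9.81.

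Some astrocyte genes stood lower after autoMACS than in the pooled references, chiefly against Tyto-Input. Of the 20 astrocyte genes, 6 were called lower in autoMACS-Input than in the references and none higher, beside 1.78% of all genes, and 7 were lower without replicate 3. Against Tyto-Input alone 9 were called lower and against FACSAria-Input alone 2. Slc1a2 read 53.96, 97.5, 48.1, 56.5 and 20.2 CPM in Tyto-Input and 12.9, 15.01, 12.8 and 42.6 CPM in FACSAria-Input (log2 fold change -2.09 ± 0.38, FDR = 0.00239), and each of these values lay above all 4 autoMACS-Input values. Kif1a, a kinesin motor of neurons, differed in the same direction, with 2.17, 2.07, 0.935 and 1.05 CPM in autoMACS-Input, 13.3, 20.2, 11.7, 11.97 and 6.77 CPM in Tyto-Input and 10.8, 4.4, 2.1 and 8.51 CPM in FACSAria-Input (log2 fold change -2.41 ± 0.40, FDR = 0.00131), where a single FACSAria-Input value fell within the autoMACS-Input range. In the study's astrocyte list, 134 of 138 genes fell against Cell-Input and 39 were lower than in the references, 48 against Tyto-Input alone and 13 against FACSAria-Input alone.

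Myelin and oligodendrocyte genes followed. Of 20 tested, 19 fell, with a median of -7.78. Mbp, myelin basic protein, went from 3121, 4667, 2865 and 5622 CPM to 75.1, 68.8, 113 and 68.6 CPM (log2 fold change -5.65 ± 0.37 (SE), FDR = 4.45e-11). Mbp reads include transcripts of the overlapping Golli unit, which immune cells use, and the deposited table holds 1 value for both. Trf, transferrin, was the member without a call (0.13, FDR = 0.402). All 14 progenitor genes fell, and Gpr17, a receptor of committed progenitors, went from 56.7, 58.2, 40.5 and 62.3 CPM to 0.075, 0.224, 0 and 0.233 CPM (log2 fold change -8.44 ± 0.63 (SE), FDR = 3.15e-10).

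Neuronal genes fell as well. Of 19 tested, 17 were called lower. Snap25, a synaptic SNARE protein, went from 418, 322, 142 and 222 CPM to 5.01, 4.71, 7.48 and 2.91 CPM (log2 fold change -5.79 ± 0.35 (SE), FDR = 1.21e-11), and Gad1, which makes GABA, from 94.3, 22.8, 61.5 and 47.3 CPM to 5.69, 4.93, 6.68 and 6.41 CPM (log2 fold change -3.26 ± 0.32 (SE), FDR = 1.88e-08). Meg3, a nuclear noncoding RNA of neurons, was not called, at 65.7, 60.6, 46.4 and 47.4 CPM against 4.34, 5.83, 116 and 10.7 CPM (log2 fold change -0.72 ± 0.68 (SE), FDR = 0.344). Without replicate 3 its change was -3.07, FDR = 9.23e-07, and all 19 neuronal genes were then called lower. Against the references 5 of the 19 were called higher, but 1 without that replicate and 1 against Tyto-Input alone. Of 10 neuroblast genes tested, 9 fell and Sox4, a factor that microglia also transcribe, rose from 60.2, 53.99, 74.9 and 66.7 CPM to 145, 152, 159 and 152 CPM (log2 fold change 1.25 ± 0.11 (SE), FDR = 2.24e-09), a call lost with DESeq2 size factors at 0.95. The neuroblast median was -6.50, or -5.68 with the gene at 0 in every autoMACS-Input library set to a floor of 3 counts per library.

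Vascular, perivascular and ventricular genes fell. All 20 endothelial, 14 mural, 14 fibroblast and 15 ependymal or choroid genes tested were called lower, with medians of -4.04, -4.14, -3.83 and -5.78 (-5.75 for the last with its gene at 0 set to the floor). Cldn5, the tight junction claudin, went from 172, 222, 363 and 275 CPM to 11.8, 19.3, 23.4 and 8.04 CPM (log2 fold change -4.05 ± 0.62 (SE), FDR = 7.73e-06). Pecam1, an adhesion molecule that endothelium shares with leukocytes, fell from 111, 171, 193 and 158 CPM to 59.96, 72.2, 45.7 and 61.3 CPM (log2 fold change -1.40 ± 0.16 (SE), FDR = 1.54e-07). Dcn, a fibroblast proteoglycan, went from 19.8, 14.7, 19.7 and 19.6 CPM to 2.1, 3.31, 11.8 and 12.8 CPM (log2 fold change -1.34 ± 0.48 (SE), FDR = 0.0163), with the male autoMACS-Input libraries lower than the female ones, and was not called in the female mice alone, at -0.72. Ttr, the choroid plexus transport protein, went from 3705, 1393, 2846 and 3215 CPM to 108, 253, 89.4 and 178 CPM (log2 fold change -4.15 ± 0.94 (SE), FDR = 5.03e-04). In the study's endothelial list, 179 of 235 genes fell and 17 rose. The 5 largest rises there were Fam129a (2.02), Pik3r6 (2.02), Slc40a1, the iron exporter ferroportin (1.84), Klf2, a shear-responsive factor (1.83), and Msn, the membrane linker moesin (1.78).

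**Figure D3:**
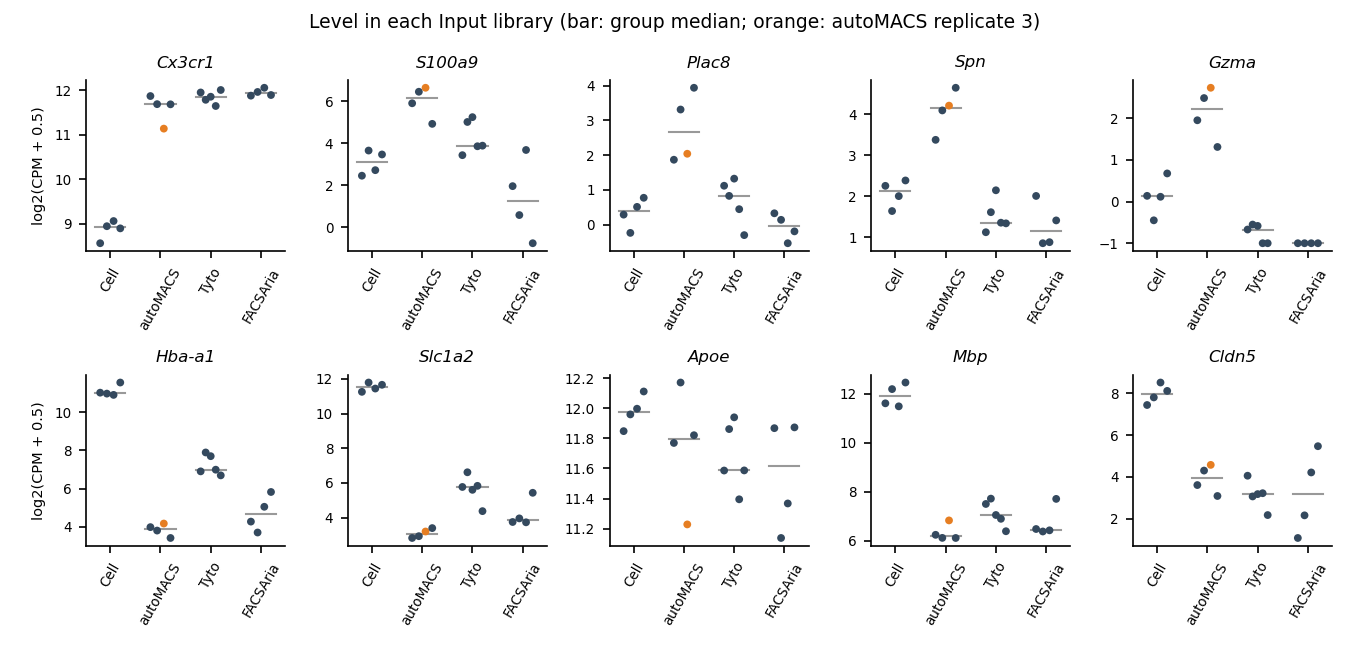
Level of 10 genes in each Input library as log2(CPM + 0.5) on the vertical axis, by group (Cell n = 4, autoMACS n = 4, Tyto n = 5, FACSAria n = 4), with the group median as a bar and autoMACS replicate 3 in orange. Cx3cr1 was higher in all 3 sorts than in Cell-Input, the Plac8, Spn and Gzma values of autoMACS lay above those of every other group, and the Apoe values of all groups overlapped.

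The largest rises against Cell-Input were not all microglial identity genes. Among genes averaging at least 20 CPM over the 8 libraries, the 8 largest were E230029C05Rik, Alb, Neurl3, Il1b, Lpl, Ccl4, Cd83 and Lat2. Lpl, lipoprotein lipase, went from 8.4, 5.5, 9.04 and 8.83 CPM to 46.2, 54.3, 119.8 and 129.8 CPM (log2 fold change 3.45 ± 0.39 (SE), FDR = 1.10e-07), the female autoMACS-Input libraries above the male ones. Alb, serum albumin, went from 8.95, 3.88, 4.86 and 3.24 CPM to 14.1, 16.7, 125 and 129.8 CPM (log2 fold change 3.76 ± 0.84 (SE), FDR = 4.51e-04), again with the female libraries apart from the male ones. Alb was at 147, 632, 98.5 and 93.8 CPM in FACSAria-Input, which included values above every autoMACS-Input library, and its difference from the references was not called (-0.51). Neurl3, a ubiquitin ligase, Cd83, a maturation antigen, and Lat2, a linker for activation, rose by 3.73, 3.41 and 3.36, and by 3.16, 2.94 and 3.06 without replicate 3.

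Immediate-early genes, which are transcribed within minutes of a stimulus without new protein synthesis, mostly rose. Of 40 tested, 30 were called higher and 4 lower, with a median of 2.08, beside 2.56 for the homeostatic list. Fos, a subunit of AP-1, went from 649, 856, 619 and 595 CPM to 4046, 3501, 3742 and 3376 CPM (log2 fold change 2.43 ± 0.16 (SE), FDR = 5.12e-11). Atf3, a stress-induced factor of the same family, went from 181, 218, 152 and 152 CPM to 1181, 1159, 1940.4 and 1067 CPM (log2 fold change 2.93 ± 0.26 (SE), FDR = 3.96e-09), with replicate 3 highest and 2.64 without it. Jun, Egr1, Ier5, Btg2 and Dusp1 rose by 2.45, 2.34, 2.89, 2.64 and 2.31. The 4 that fell were Arc, Npas4, Nr4a3 and Nr4a2 (-5.46, -4.11, -2.52 and -1.34), genes best known from active neurons. Between autoMACS-Input and the references no immediate-early gene was called higher and 1 lower, and Fos read 3469 ± 440.1 CPM in Tyto-Input and 4097 ± 1049 CPM in FACSAria-Input.

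The cytokine and chemokine list split in direction. Of 27 tested, 18 rose and 5 fell, beside 20.2% of all genes called higher and 32.2% lower. Il1b, interleukin-1 beta, went from 16.3, 16.9, 5.93 and 13.7 CPM to 102, 113, 315 and 80.5 CPM (log2 fold change 3.53 ± 0.43 (SE), FDR = 4.23e-07), and by 2.86 without replicate 3, which held the highest value. Ccl4, a macrophage chemokine, went from 34.7, 42.8, 27.1 and 33.1 CPM to 188, 267, 755 and 285 CPM (log2 fold change 3.44 ± 0.36 (SE), FDR = 4.31e-08), and by 2.79 without it. The 5 that fell were Il33, an alarmin of oligodendrocytes and astrocytes (-8.40), Cxcl14 (-6.45), Cxcl12, an endothelial and stromal chemokine (-4.93), Cx3cl1, the neuronal ligand of Cx3cr1 (-4.68), and Il34. Il34, the neuronal ligand of the microglial survival receptor Csf1r, went from 9.91, 9.85, 10.4 and 10.1 CPM to 0.599, 0.112, 1.07 and 1.28 CPM (log2 fold change -3.81 ± 0.65 (SE), FDR = 4.12e-05). Against the references 2 of the 27 were called higher and 1 lower, beside 2.72% and 1.78% of all genes. Without autoMACS-Input replicate 3 these counts were 1 and 0.

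Chaperone genes showed no common direction. Of 18 tested, 3 rose (1 with DESeq2 size factors) and 5 fell, near the shares of all genes called (20.2% higher and 32.2% lower). The list median, 0.05, was below 0 under other scalings, down to -0.32. Hspa1a, the inducible heat shock protein, went from 53.6, 27.1, 19.3 and 14.4 CPM to 150.2, 81.1, 155 and 50.9 CPM (log2 fold change 1.94 ± 0.63 (SE), FDR = 0.00883), with a wide spread in both groups. Hsp90b1, a chaperone of the endoplasmic reticulum, and Dnajb1, a co-chaperone, rose by 1.14 and 1.29, but with DESeq2 size factors they were at 0.84 and 0.98, below the threshold. Hspb1, a small heat shock protein of astrocytes and vessels, fell from 82.4, 81.1, 105 and 83.96 CPM to 6.66, 7.17, 7.08 and 4.19 CPM (log2 fold change -3.80 ± 0.29 (SE), FDR = 4.42e-10).

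Many genes of innate sensing and phagocytosis were called higher, beside 20.2% of all genes called higher and 32.2% lower. All 19 antigen presentation genes rose (median 2.04), as did 17 of 18 Fc receptor and adaptor genes (median 2.63), 15 of 22 Toll-like receptor genes (median 1.92) and 23 of 33 lysosomal genes (median 1.75). C1qa, a chain of complement C1q made in the brain by microglia, went from 558, 680.4, 675 and 695 CPM to 4224, 4055, 3721 and 4158 CPM (log2 fold change 2.63 ± 0.09 (SE), FDR = 7.81e-15). Cd14, the lipopolysaccharide co-receptor, went from 75.8, 90.95, 79.01 and 69.4 CPM to 572, 581, 536 and 556 CPM (log2 fold change 2.83 ± 0.11 (SE), FDR = 3.65e-14). Tlr2 and Tlr7 rose by 2.80 and 1.91, while Tlr3, which astrocytes also transcribe, had a change of 0.55 that did not pass the fold threshold. In the complement list 11 of 18 rose, and the 4 that fell, Clu (-7.09), Cd59a (-3.97), Serping1 (-2.83) and Cd55 (-1.69), are regulators of the cascade. Ctsd, Ctsl and Lgmn, lysosomal proteases, rose by 2.17, 1.93 and 2.50. Ctsk, the collagen-degrading cathepsin, fell (-2.98), and Lamp1, a membrane glycoprotein of all lysosomes, changed by 0.66 without a call.

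Of 27 disease-associated microglia genes, 17 rose and 1 fell, with a median of 1.68, beside 20.2% of all genes called higher and 32.2% lower. The genes called lower numbered 2 with DESeq2 size factors and 3 with limma. Cst7, a cathepsin inhibitor, and Clec7a, the beta-glucan receptor dectin-1, rose by 3.53 and 3.24, and Spp1, osteopontin, by 1.37, the last losing its call with DESeq2 size factors at 1.08 and without autoMACS-Input replicate 4 at 0.58. The member that fell in the reported fit was Ank, a pyrophosphate transporter (-1.67). Interferon-stimulated genes were mixed, with 8 of 20 higher, such as Bst2, the tetherin (2.06), 3 lower, Rsad2 (-1.81), Ifi44 (-1.53) and Ifit1 (-1.07), and 9 without a call. Ifit1 lost its call without Cell-Input replicate 2 (-0.98) and without autoMACS-Input replicate 1 (-0.88).

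Signalling lists held members that rose and members that fell, beside 20.2% of all genes called higher and 32.2% lower. In the purinergic and potassium channel list 13 of 22 rose and 7 fell. P2ry6, the UDP receptor of microglial phagocytosis, and Kcnk13, the microglial leak channel THIK-1, rose by 2.56 and 1.24, the latter by 0.95 and uncalled with DESeq2 size factors, while Kcnj10, the astrocytic inward rectifier, fell (-5.47) along with Adora1 (-5.49). In the TGF-beta list 8 of 21 rose and 9 fell, with a median of 0.13 that ranged from -0.26 to 1.09. Tgfb1, the ligand that microglia make, went from 71.7, 96.9, 111 and 91.3 CPM to 596, 546, 278 and 498 CPM (log2 fold change 2.37 ± 0.18 (SE), FDR = 3.49e-10). Tgfb2, made by astrocytes and neurons, went the other way, from 33.02, 20.7, 38.99 and 36.4 CPM to 1.35, 2.07, 2.54 and 2.56 CPM (log2 fold change -3.94 ± 0.63 (SE), FDR = 1.15e-05). The receptor chains Tgfbr1 and Tgfbr2 rose by 2.44 and 1.65, and Itgb8, the integrin chain by which neighbouring cells release active TGF-beta, fell (-7.66).

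Glycolytic isoenzymes moved in different directions. Hk2 and Hk3, inducible and myeloid hexokinases, rose, with Hk2 going from 65.8, 79.3, 84.5 and 77.1 CPM to 518, 448, 572 and 497 CPM (log2 fold change 2.73 ± 0.09 (SE), FDR = 1.13e-14) and Hk3 changing by 3.10. Hk1, the hexokinase of neurons and astrocytes, went from 159, 157, 147 and 175 CPM to 61.9, 59.6, 29.2 and 69.2 CPM (log2 fold change -1.53 ± 0.17 (SE), FDR = 7.06e-08). Slc2a5, the hexose transporter that marks microglia, went from 64.9, 85.3, 96.9 and 95.3 CPM to 722, 679, 322 and 584 CPM (log2 fold change 2.75 ± 0.18 (SE), FDR = 5.66e-11). Aldoc, Pfkm and Eno2, the aldolase, phosphofructokinase and enolase isoforms of other brain cells, fell (-7.58, -4.21 and -4.96). In all, 4 of 23 glycolysis genes rose and 8 fell, near the shares of all genes called (20.2% higher and 32.2% lower).

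Most genes of cholesterol and lipid handling were lower. Of 21 genes of cholesterol and lipid handling, 14 were called lower and 3 higher, with a median of -1.68. Sqle, squalene epoxidase, went from 76.2, 82.6, 83.7 and 82.7 CPM to 6.59, 5.996, 1.87 and 6.99 CPM (log2 fold change -3.89 ± 0.24 (SE), FDR = 2.02e-11). Abca1 and Npc2, which move cholesterol out of the cell and out of lysosomes, rose by 1.30 and 1.71, but Abca1 by 0.998 and uncalled with DESeq2 size factors. Against the references none of the 21 was called.

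Genes of the protein-making and respiring machinery shifted by small amounts. All 79 cytosolic ribosomal protein genes tested had a positive change, with a median of 0.91, and 27 were called higher. The median stayed between 0.54 and 0.99 under the alternatives, with 1 to 35 calls, 2 of them with DESeq2 size factors. Many of these genes have near-identical processed copies, so single members are uncertain. Of 89 nuclear genes of oxidative phosphorylation, 83 had a negative change and 23 were called lower, beside 32.2% of all genes, with a median of -0.67. The calls rose to 37 with DESeq2 size factors and 47 with limma. The exception called higher was Cox6a2, an isoform of a cytochrome oxidase subunit (1.63). Medians between autoMACS-Input and the references were 0.29 and 0.27 for these lists.

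**Figure D4:**
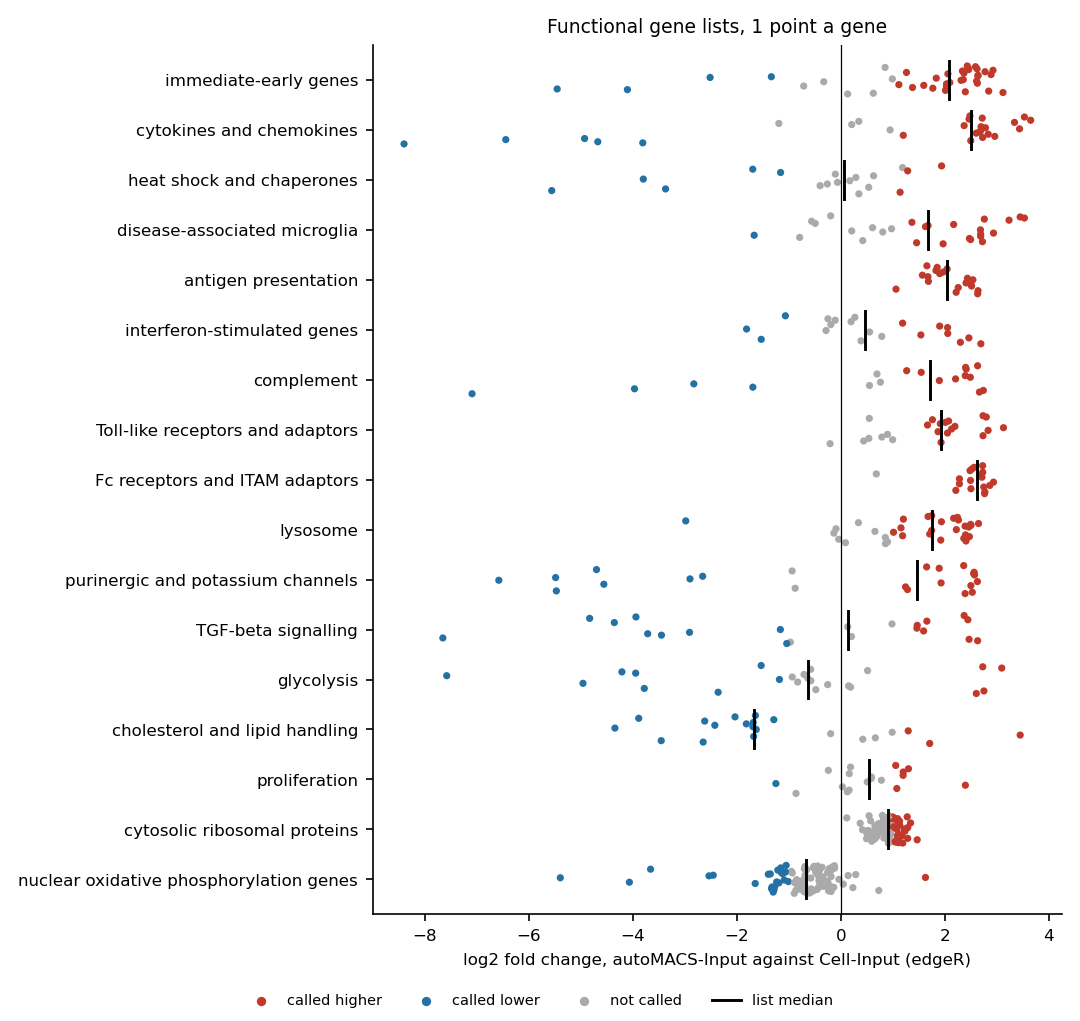
Log2 fold change of autoMACS-Input (n = 4) over Cell-Input (n = 4) for every tested member of each functional list, 1 point a gene, with the list median as a black bar. Antigen presentation and Fc receptor genes lay above 0, and ribosomal protein genes formed a narrow cluster near 1. Purinergic, TGF-beta, glycolysis and cytokine genes lay on both sides of 0.

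Several differences rested on autoMACS-Input replicate 3. Malat1, a nuclear noncoding RNA, read 161, 202, 166 and 229 CPM in Cell-Input and 129.8, 169.7, 6211 and 339 CPM in autoMACS-Input (log2 fold change 3.17 ± 0.85 (SE), FDR = 0.0022), and its change without replicate 3 was 0.11, FDR = 0.757. Neat1, the scaffold of paraspeckles, read 304, 294, 283 and 238 CPM and 551, 659, 2140.0 and 782 CPM (log2 fold change 1.88 ± 0.34 (SE), FDR = 4.52e-05), and 1.19, FDR = 7.37e-05 without it. Mki67, a marker of cycling cells, read 7.8, 6.78, 4.13 and 5.16 CPM and 4.64, 7.4, 27.2 and 11.1 CPM (log2 fold change 1.06 ± 0.43 (SE), FDR = 0.0297), and 0.30, FDR = 0.432 without it. Mki67 also lost its call with replicate 3 kept, at 0.78 with DESeq2 size factors and 0.42 with limma. In the proliferation list 6 of 18 genes were called higher, beside 20.2% of all genes. The number was 2 without replicate 3, 2 with DESeq2 size factors and 1 with limma. Leaving out Cell-Input replicate 3 gave 3. F10 and Wnt4, at 63.4 and 74.3 CPM in replicate 3 and below 4 CPM in the other autoMACS-Input libraries, ranked among the 8 largest rises over the references (3.01 and 3.33) and had 0.28, FDR = 0.717 and 0.25, FDR = 0.749 without it. Replicate 3 was at the same time the lowest autoMACS-Input library for Cx3cr1, Itgam, Tgfb1 and Slc2a5.

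**Figure D5:**
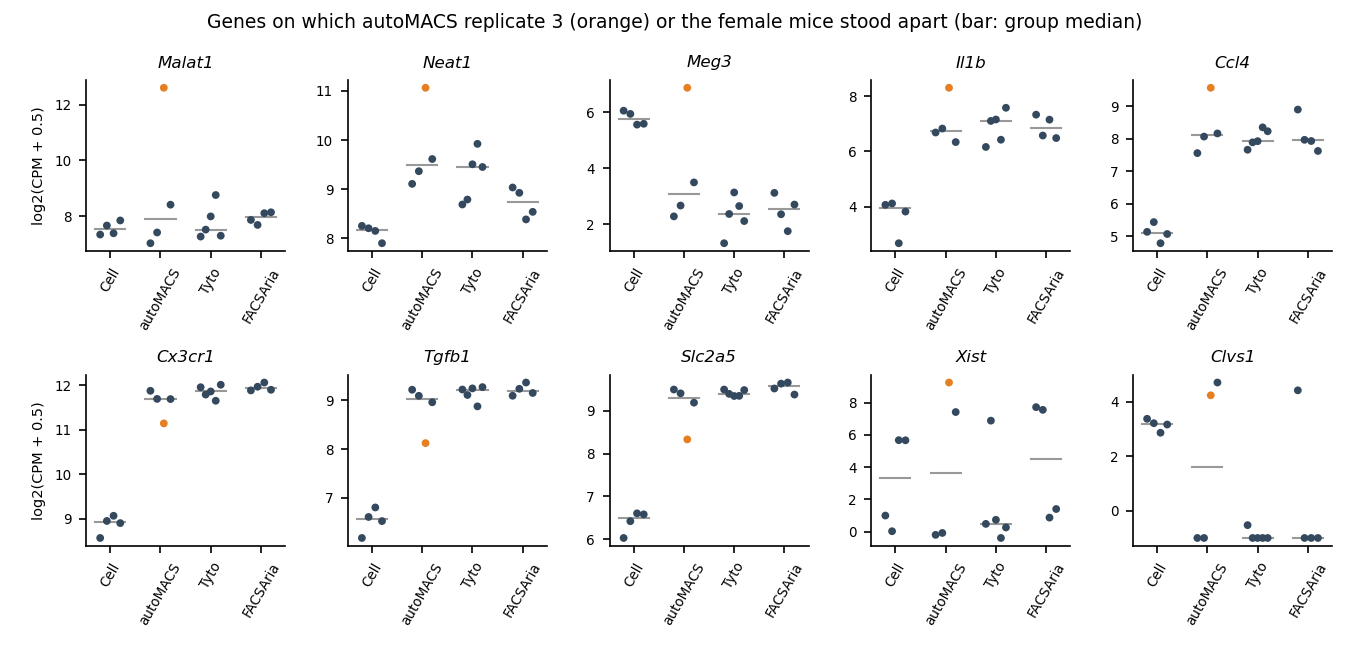
Level of 10 genes in each Input library as log2(CPM + 0.5), by group, with the group median as a bar and autoMACS replicate 3 in orange. Malat1, Neat1, Meg3, Il1b and Ccl4 were highest in replicate 3 among the autoMACS libraries, Cx3cr1, Tgfb1 and Slc2a5 were lowest in it, and Xist and Clvs1 were high in replicates 3 and 4.

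Female and male mice were compared within autoMACS-Input, 2 against 2, in a fit with the Cell-Input libraries. Of 14905 genes, 35 were called (0.235%), 33 of them higher in females, and within Cell-Input none was called by edgeR, with 341 at an unadjusted p under 0.05. Xist, the RNA that silences the second X chromosome, read 0.374, 0.448, 606 and 170.2 CPM in autoMACS-Input and 1.5, 0.521, 50.5 and 50.2 CPM in Cell-Input. It was high in the replicates from females in both groups, yet was not called in Cell-Input. The absence of calls there therefore does not show that the sexes were alike. Clvs1, a lipid-binding protein of clathrin vesicles, was at 0, 0, 18.3 and 25.5 CPM in autoMACS-Input and 9.85, 8.75, 6.76 and 8.45 CPM in Cell-Input and was called between the sexes in autoMACS-Input. With both male libraries at 0, no fold is given. The change between sexes differed between autoMACS-Input and Cell-Input at 4 genes (0.0268%). Sgsh, a lysosomal sulfatase, was lower in females (log2 fold change -1.28 ± 0.16, FDR = 0.0554). The number of calls ran from 1, without autoMACS-Input replicate 1 or 2, to 2672, without replicate 4, and from 3 to 8 without a Cell-Input library. Leaving out an autoMACS-Input library leaves 1 mouse of that sex, replicate 3 alone in the last case, and its spread is then assumed from the other libraries.

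The ribosome-bound RNA of the same lysates gave a second view. In TRAP, where RNA on eGFP-tagged ribosomes is pulled down, autoMACS and Cell libraries (n = 4 each) differed at 3533 of 14953 genes (23.6%), 98 higher (0.655%) and 3435 lower (23%). Of 30 homeostatic microglial genes 1 was called, with a median of 0.32, and Cx3cr1 had a log2 fold change 0.47 ± 0.07, FDR = 7.66e-06. Genes of other cells still fell, with 18 of 20 astrocyte, 17 of 20 oligodendrocyte, 19 of 19 neuronal and 19 of 20 endothelial genes called lower. Slc1a2 had a log2 fold change -9.41 ± 0.44, FDR = 1.01e-14. Of 40 immediate-early genes none was called higher and 4 lower, and Fos had a log2 fold change 0.38 ± 0.15, FDR = 0.0359. Of 79 ribosomal protein genes 1 was called higher, with a median of 0.60. The Input and TRAP values come from the same mice and lysates and were fitted separately.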

How the data were processed

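Poly(A) RNA of each lysate was sequenced as stranded libraries. The authors aligned reads to mm10 and counted them in Strand NGS v4.0 with duplicates removed, and deposited expected counts, of which 33.2% were whole numbers. Their table holds genes that passed 5 reads throughout at least 1 group. The deposited log2 values were scaled by the authors with DESeq2 (version not given in the sources used here) and set relative to the tissue libraries, and were used here as an alternative only.

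Here the expected counts were rounded and tested in edgeR 4.0.16 (R 4.3.3) by the quasi-likelihood test with TMM scaling and Benjamini-Hochberg adjustment, in 1 fit of 20 Input libraries and 1 of 24 TRAP libraries, with group as the sole term. Mice that gave several libraries to a fit were not modelled. Genes had to exceed 5 counts in every library of a group. Calls needed FDR under 0.1 and a fold change above 2, the thresholds of the study. A standard error is the log2 fold change divided by the root of its F statistic. The sex of each mouse came from the study's sequencing metrics, and female and male mice were compared in the 8 libraries. The fit was tested on simulated counts with 200 changed genes. Those counts held as many raised as lowered genes and no library apart, so they do not test the scaling in these data. Alternatives used DESeq2 1.42.0, limma 3.58.1, other filters, other sets of libraries and the omission of each library. Depth bounds the precision of low genes, and 23 gene symbols turned into dates in the table were restored.

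Named genes were the leading members of each list, the 8 largest called changes in each direction (at least 20 CPM on average, or 5 CPM against the sorted references), up to 5 called members that moved against their list, up to 4 genes in each direction between sexes, and uncalled microglial markers. Colec12, Etv5, Glul, Itgal and Trf were named after their values were seen. Members and lists were chosen with earlier results of these data known. The lists overlap, and none was tested as a set. A few genes are not reported here.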

Additional observations from a re-analysis of the deposited data

Results flagged for a closer look

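Per-library values of 54 genes were screened in autoMACS-Input and in Cell-Input, 108 tests in all, for a library whose gap to its nearest neighbour exceeded Dixon's limit for 4 samples. Over 11495 genes autoMACS-Input replicate 3 stood apart, high or low, at 9.74%. The screen found 13 flags. They are not set against a chance rate, because the genes were those given per library in the text and were not picked blind to their values. In 6 of them autoMACS-Input replicate 3 was the high library: Malat1 at 6211.1 CPM, Neat1 at 2140.0 CPM, Atf3 at 1940.4 CPM, Il1b at 315.2 CPM, Meg3 at 116.2 CPM and Mbp at 113.1 CPM. The others lay in Cell-Input. Replicate 4 was high for Hba-a1 at 2982.9 CPM and Alas2 at 364.4 CPM. Replicate 1 was high for F13a1 at 56.01 CPM and low for C1qa at 558.2 CPM and Sqle at 76.24 CPM. Replicate 3 was high for Hspb1 at 105.4 CPM, and replicate 2 was low for Dcn at 14.66 CPM.

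In 4 genes the change from male to female differed between autoMACS-Input and Cell-Input in the interaction test of edgeR, with 2 mice of each sex in each group. The log2 difference was 11.66 for Clvs1 (FDR = 0.0089) and 5.17 for B3gat2 (FDR = 0.0089), and it was 6.499 for Foxp3 (FDR = 0.0907) and 2.93 for Cdo1 (FDR = 0.0907). The Clvs1 value depends on the prior count of the fit, since both male autoMACS-Input libraries were at 0. Sex and RNA integrity cannot be told apart in these autoMACS-Input libraries.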

How the results depend on the processing

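No paired analysis was possible because autoMACS-Input shares no mouse with any group it was compared with. Against Cell-Input, 7897 genes were called, and 3432 when every library of the fit needed at least 10 counts, a filter that removes genes near 0 in sorted cells. Other settings gave 7444 to 8113 calls and 7668 to 7953 with a library left out. Higher and lower calls numbered 3048 and 4849 with TMM, 2219 and 5319 with DESeq2 size factors, and 1934 and 5609 with limma on the deposited log2 values. Against the sorted references, 679 calls became 201 with at least 10 counts, and 371 without autoMACS-Input replicate 3 to 904 without autoMACS-Input replicate 1. In TRAP, 3533 calls became 500.0 with at least 10 counts. Between sexes, 35 calls became 1 without autoMACS-Input replicate 1 or 2 and 2672 without replicate 4. The cause was not tested.

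Among named genes against Cell-Input, 3747 values kept direction and call, 99 lost the call, 15 gained it and 25 changed sign. With DESeq2 size factors, the DESeq2 Wald test, at least 10 counts and limma, Irf7 (0.20 in the reported fit, not called) was -0.0953, -0.0923, -0.174 and -0.18, and Top2a (0.19, not called) -0.105, -0.105, -0.184 and -0.189. With limma, Wnt4 was -0.70 and Clvs1 -2.98, and with a sex term Clvs1 was -1.22. In male mice only, Clvs1 was -10.29 (both autoMACS-Input libraries at 0, so the value depends on the prior count and is no bound), Wnt4 -1.96, Xist -1.37, Malat1 -0.37, Mki67 -0.36, Ch25h -0.16 and Top2a -0.0841. In female mice only, Meg3 was 0.44 and Ifit3 0.13. With a library left out, Irf7 ranged from -0.0491 to 0.27, Top2a from -0.0389 to 0.31, Wnt4 from -1.63 (without autoMACS-Input replicate 3) to 1.82 and Clvs1 from -0.66 (without replicate 4) to 0.70. Against the sorted references 472 values kept direction and call, 43 lost the call, 2 gained it and 3 changed sign. Without autoMACS-Input replicate 3 Malat1 was -0.15 and Gm14023 -1.23, with upper ends of 3.19 and 3.15 when replicate 1 was left out, and Fn1 was -0.0702 against FACSAria-Input alone.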

Other observations

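Foxp3, the factor that defines regulatory T cells, varied between libraries of the same group. It read 4.26, 4.81, 4.23 and 4.17 CPM in Cell-Input and 0.15, 0.392, 34.5 and 14.4 CPM in autoMACS-Input, where the female mice held the high values. It read 0, 10.1, 11.2, 1.06 and 0.233 CPM in Tyto-Input and 11.5, 10.7, 11.04 and 9.35 CPM in FACSAria-Input. Clvs1 was similarly uneven, at 0.193, 0, 0, 0 and 0 CPM in Tyto-Input and 20.8, 0, 0 and 0 CPM in FACSAria-Input.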
